A study of Mus musculus with 15 samples.

Results

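The RAS, RAF, MEK and ERK genes of the mouse were followed in spleen cells of 5 transgenic genotypes, which were mononuclear cells positive for the surface marker Sca1 and sorted with magnetic beads. They were taken as a list of 7 genes, Nras, Hras, Araf, Braf, Map2k1, Map2k2 and Mapk3, and the rule for keeping them used no measured value. A gene was kept if a probe set of the array was annotated to it alone. This held for 4 of the 7, Nras, Araf, Map2k1 and Map2k2, each with 1 probe set among the 14860 genes tested. Hras, Braf and Mapk3 were not analysed here. One GTPase, one RAF kinase and both MEK kinases were therefore followed, and no ERK kinase.

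RAS proteins are small GTPases that relay growth factor signals when they hold GTP. Active RAS brings a RAF kinase to the membrane, RAF phosphorylates MEK, and MEK phosphorylates ERK, which acts on transcription factors and on its own inhibitors. Mutations that keep NRAS in its active state are found in human myeloid neoplasms, including myelodysplastic syndrome and acute myeloid leukaemia. The cascade is driven through phosphorylation, which transcript levels do not report.

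Each genotype had 3 mice of the FVB/N strain, 15 in all, with 1 exon array per mouse, and each mouse is given by its number. The MRP8NRASD12 mice carried a mutant human NRAS under the MRP8 promoter, which is active in myeloid cells. The tethBCL2 mice carried human BCL2, which blocks apoptosis, under a tetracycline-controlled system (MMTVLTRtTA/TetO), and the MRP8hBCL2 mice carried it under the MRP8 promoter. The HR-MDS mice, a model of high-risk myelodysplastic syndrome, combined MRP8NRASD12 with tethBCL2. The AML post MDS mice, a model of leukaemia after that syndrome, combined MRP8NRASD12 with MRP8hBCL2. No control without a transgene was used here, so each comparison is between transgenic groups, and the AML post MDS spleens were taken from younger mice than the HR-MDS spleens. The GEO labels give the disease state as AML for all 15 samples, so the groups were read from the sample titles. The probe set for mouse Nras was not tested for binding of the human NRAS transcript.

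Values are on the log2 scale, on which a difference of 1 is a doubling, and were deposited already summarised to genes. Their precision is limited by the 3 arrays per group. Within each group the arrays correlated at 0.976 to 0.984 with the rest of the group in MRP8NRASD12 and at 0.986 to 0.994 in the other groups, over 14860 genes. The 6 arrays of MRP8hBCL2 and AML post MDS stood apart from the other 9, since for 5.37% of genes all 6 lay below all 9 and for 7.82% above them. A BCL2 transgene under MRP8 and anything else those 6 arrays share cannot be told apart. The Sca1 gene, Ly6a, was not analysed here, so the marker used for sorting could not be checked. In a sorted spleen sample, fewer cells of a type and less RNA per cell cannot be told apart.

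The genes that separated the groups most among the 4 were the MEK kinase genes Map2k1 and Map2k2, and their promoters are shown here because both genes moved with the BCL2 construct. Each sequence covers 250 bases before and 50 bases after the RefSeq transcription start in build GRCm38.p6 and reads 5′ to 3′ on the strand of the gene. Map2k1 lies on the minus strand, with the window at chr9:64253556-64253855, and Map2k2 on the plus strand, at chr10:81105665-81105964. Capitals mark the GC box GGGCGG, the ETS core CCGGAA and the cAMP response core TGACGT, each searched on both strands.
Map2k1: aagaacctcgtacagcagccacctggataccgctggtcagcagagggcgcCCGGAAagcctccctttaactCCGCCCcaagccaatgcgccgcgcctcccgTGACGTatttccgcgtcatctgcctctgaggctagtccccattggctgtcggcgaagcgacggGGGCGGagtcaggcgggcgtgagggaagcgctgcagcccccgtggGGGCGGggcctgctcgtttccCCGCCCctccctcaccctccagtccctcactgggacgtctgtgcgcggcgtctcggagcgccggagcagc
Map2k2: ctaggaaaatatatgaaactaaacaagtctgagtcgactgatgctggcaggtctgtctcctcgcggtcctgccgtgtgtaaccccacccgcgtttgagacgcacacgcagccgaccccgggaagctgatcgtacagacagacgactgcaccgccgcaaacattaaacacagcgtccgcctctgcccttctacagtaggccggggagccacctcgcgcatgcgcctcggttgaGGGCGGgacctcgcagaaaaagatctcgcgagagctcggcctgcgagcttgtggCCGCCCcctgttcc
The Map2k1 window held 4 GC boxes, 1 ETS core and 1 cAMP response core, and the Map2k2 window held 2 GC boxes and neither of the others. A GC box was present in 35.7% of 32851 promoters of the same length, an ETS core in 14.9% and the cAMP response core in 7.51%. The motif CCAAT, found in 37.4% of promoters, occurred 2 times in the Map2k1 window and 0 times in that of Map2k2, and TATAAA, found in 13.6%, occurred in neither. GC content was 69.0% for Map2k1 and 60.7% for Map2k2, against a median of 52.7% over all promoters. The windows of the other 2 genes held 3 GC boxes for Nras and 0 for Araf, so the GC box did not divide the genes by their pattern.

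Across the 5 genotypes, Map2k1 and Map2k2 differed most clearly, Araf less, and Nras did not pass the test. The limma F test of equal means, with Benjamini-Hochberg adjustment over all genes, gave an adjusted p of 0.00139 for Map2k1, 0.000181 for Map2k2, 0.0403 for Araf and 0.786 for Nras. Of all genes tested, 34.3% passed this test. The group means spanned 0.76 for Map2k1, 0.61 for Map2k2, 0.43 for Araf and 0.17 for Nras on the log2 scale. These spans were wider than those of 75.5%, 66.9%, 50.7% and 13.2% of genes, so none of the 4 was extreme. Map2k2 was measured with the least spread, with a residual SD of 0.0607 against a median of 0.18 over genes, and Nras had 0.174.

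**Figure D1:**
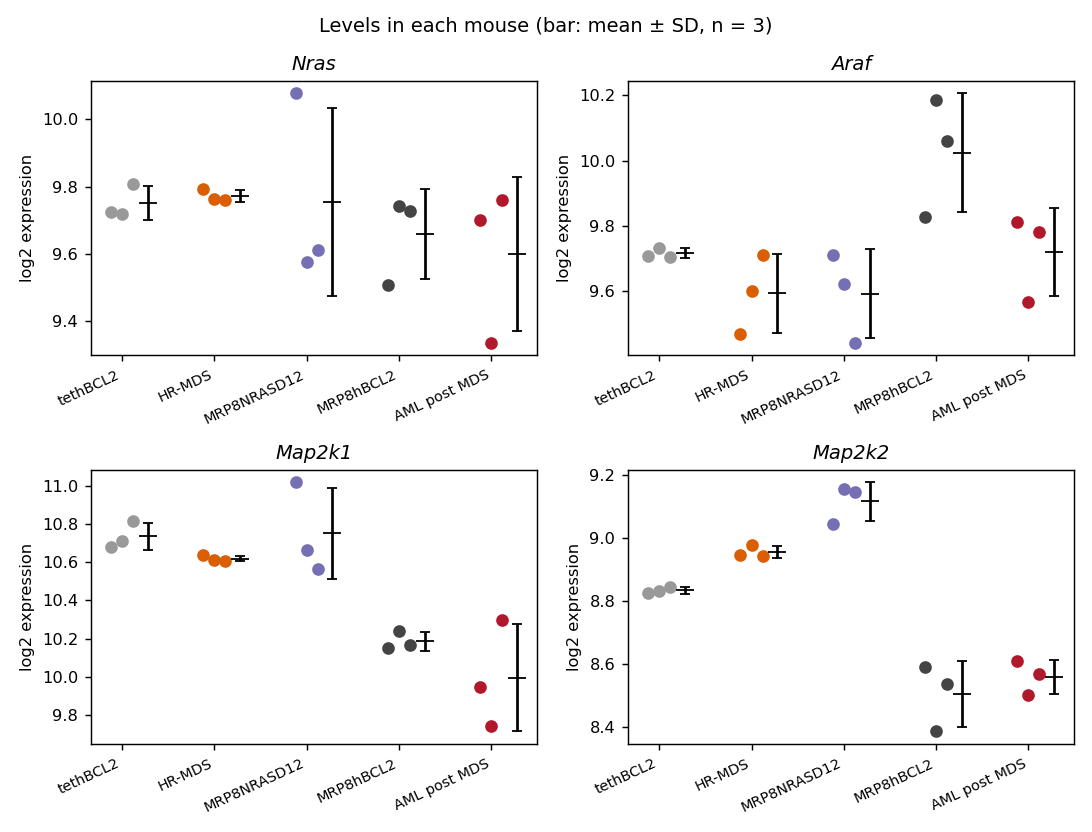
Log2 expression of Nras, Araf, Map2k1 and Map2k2 in each of 15 mice. Points are mice, and bars give the mean and SD of the 3 mice of a group. The axes do not start at 0. In Map2k1 and Map2k2 the 6 mice of MRP8hBCL2 and AML post MDS lie below all 9 others, as for 5.37% of genes. In Nras HR-MDS and MRP8hBCL2 are the only 2 groups that do not overlap, as for 38.1% of genes.

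Map2k1 encodes MEK1, the kinase that phosphorylates ERK. Its level was 10.68, 10.71 and 10.82 in tethBCL2 mice 7758, 7465 and 7466, and 10.64, 10.61 and 10.61 in HR-MDS mice 8111, 8019 and 8398. It was 11.02, 10.67 and 10.57 in MRP8NRASD12 mice 8157, 8158 and 8159. The 9 mice thus lay close together, with mouse 8157 above the rest. In MRP8hBCL2 mice 3012, 3386 and 3391 Map2k1 was at 10.15, 10.24 and 10.17, and in AML post MDS mice 3622, 3626 and 3518 it was at 9.95, 9.74 and 10.30. All 6 of these mice were below the lowest of the other 9, as for 5.37% of genes.

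Map2k2 encodes MEK2, the second MEK kinase, with the same substrate. It stood at 8.83, 8.83 and 8.85 in the tethBCL2 mice 7758, 7465 and 7466 and at 8.95, 8.98 and 8.94 in HR-MDS mice 8111, 8019 and 8398. The MRP8NRASD12 mice 8157, 8158 and 8159 had 9.05, 9.16 and 9.15, the highest values of the series for this gene. MRP8hBCL2 mice 3012, 3386 and 3391 had 8.59, 8.39 and 8.54, and AML post MDS mice 3622, 3626 and 3518 had 8.61, 8.50 and 8.57. As for Map2k1, these 6 mice were below the other 9, and their groups overlapped with each other.

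Araf encodes a RAF kinase that phosphorylates MEK and is carried on the X chromosome. It was at 9.71, 9.73 and 9.71 in tethBCL2 mice 7758, 7465 and 7466, and at 9.47, 9.60 and 9.71 in HR-MDS mice 8111, 8019 and 8398. In MRP8NRASD12 mice 8157, 8158 and 8159 it was at 9.71, 9.62 and 9.44, and in AML post MDS mice 3622, 3626 and 3518 at 9.81, 9.56 and 9.78. The MRP8hBCL2 mice 3012, 3386 and 3391 stood above these, at 9.83, 10.19 and 10.06, without overlap with any other group. Groups did not overlap for 42.1% of genes between MRP8hBCL2 and tethBCL2, 38.1% between MRP8hBCL2 and HR-MDS, 30.5% between MRP8hBCL2 and MRP8NRASD12 and 18.2% between MRP8hBCL2 and AML post MDS. Levels of the Y-linked Eif2s3y were 3.64 to 4.01 in the 3 MRP8NRASD12 mice and in AML post MDS mouse 3518 and 9.25 to 10.31 in the other 11. The part of sex in the Araf values was not tested. Xist was not analysed here.

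Nras encodes the endogenous mouse GTPase. Its level was 9.72, 9.72 and 9.81 in tethBCL2 mice 7758, 7465 and 7466, 9.79, 9.76 and 9.76 in HR-MDS mice 8111, 8019 and 8398, and 10.08, 9.58 and 9.61 in MRP8NRASD12 mice 8157, 8158 and 8159. It was 9.51, 9.74 and 9.73 in MRP8hBCL2 mice 3012, 3386 and 3391, and 9.70, 9.34 and 9.76 in AML post MDS mice 3622, 3626 and 3518. Of the 10 pairs of groups only HR-MDS and MRP8hBCL2 did not overlap, as for 38.1% of genes. The 3 genotypes with the NRAS transgene held both the highest value, in mouse 8157, and the lowest, in mouse 3626. Mouse 8157 was also the highest of the 15 for Map2k1.

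The first question was whether expression of the cascade differed where the NRAS transgene was added to a BCL2 founder. The design allows this within each BCL2 construct, HR-MDS against tethBCL2 and AML post MDS against MRP8hBCL2, and as the mean of both differences. None of the 4 genes passed in any of the 3. Of all genes, 0.451% passed in HR-MDS against tethBCL2, 1.93% in AML post MDS against MRP8hBCL2 and 6.47% in the mean of both.

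For Nras the mean of both differences was -0.02 (SE 0.10), with a 95% interval of -0.23 to 0.19 and a limma adjusted p of 0.936. A rise of the Nras signal by more than 0.19 lay outside this interval. Map2k1 differed by -0.12 in HR-MDS and -0.19 in AML post MDS, and the mean was -0.15 (SE 0.10, interval -0.36 to 0.06, adjusted p = 0.417). Map2k2 differed by 0.12 and 0.06, with a mean of 0.09 (SE 0.06, interval -0.03 to 0.21, adjusted p = 0.424). The 2 MEK genes thus differed in opposite directions, and both intervals included 0.

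Some groups did separate without passing the limma test. Map2k2 was higher in all 3 HR-MDS mice than in the 3 tethBCL2 mice, and Map2k1 was lower, with limma adjusted p of 0.643 and 0.818. The exact permutation test of 3 mice against 3 gave a two-sided p of 0.1 for each, the smallest it can give. Groups did not overlap for 26.1% of genes in this comparison. By the unpaired test that the methods name, the unadjusted p was 0.00065 for Map2k2 and 0.0523 for Map2k1. The cutoff in the methods was 0.05, so Map2k2 was under it and Map2k1 was not. Without adjustment 2465 of 14860 genes were under this cutoff in HR-MDS against tethBCL2, and with adjustment over all genes 5 passed. The sign for Map2k2 depends on scaling, since the mean array median over genes was 6.74 in tethBCL2 and 6.92 in HR-MDS, and with each array's median subtracted the difference was -0.05. Across the 5 groups the mean array median ran from 6.74 in tethBCL2 to 6.99 in AML post MDS, so each comparison with tethBCL2 shifts by more than 0.1 under this scaling.

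Araf was lower in the 3 AML post MDS mice than in the 3 MRP8hBCL2 mice, by -0.30 (SE 0.11, interval -0.55 to -0.06, limma adjusted p = 0.195). Their values did not overlap, which was so for 18.2% of genes. The mean over both constructs was -0.21 (SE 0.08, adjusted p = 0.144), and it became -0.34 (adjusted p = 0.0135) with array medians subtracted. For Araf the 2 differences had the same sign, at -0.12 in HR-MDS and -0.30 in AML post MDS.

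The NRAS effect was then compared between the constructs. The difference of the 2 differences was -0.08 for Nras, -0.18 for Araf, -0.07 for Map2k1 and -0.07 for Map2k2, each with an adjusted p of 1. By limma 0 of 14860 genes passed this test, 684 had an unadjusted p under 0.05, and with array weights 14 genes passed. Neither MEK gene was therefore shown to respond differently to the transgene in the 2 models.

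**Figure D2:**
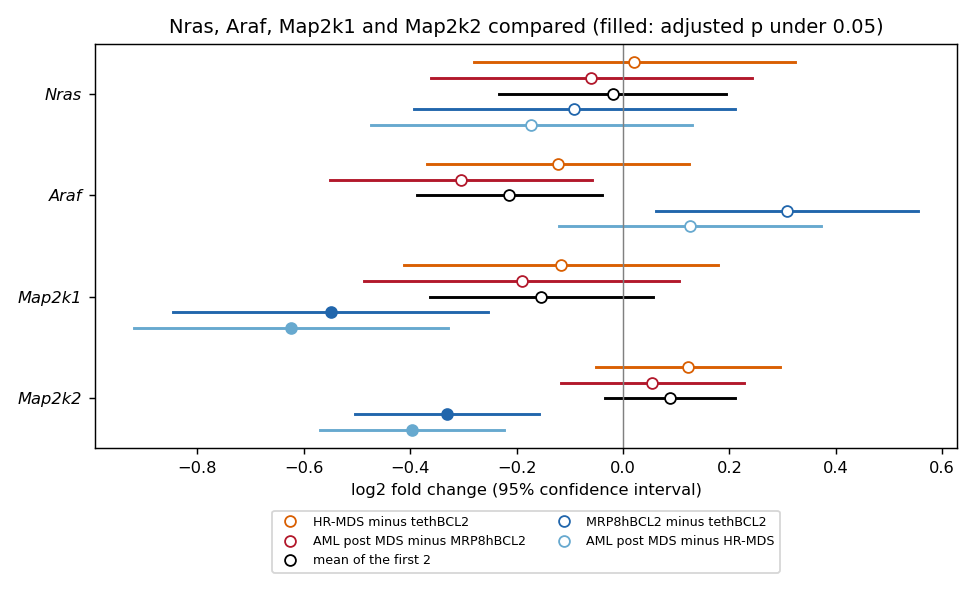
Log2 fold changes of Nras, Araf, Map2k1 and Map2k2 with 95% confidence intervals from the limma fit over 15 arrays. Filled circles have an adjusted p under 0.05. Only Map2k1 and Map2k2 are filled, at -0.55 and -0.33 in MRP8hBCL2 against tethBCL2 and at -0.62 and -0.40 in AML post MDS against HR-MDS.

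The second question was how the groups with MRP8-driven BCL2 differed from those with tet-driven BCL2. It can be asked of the founders and, with other mice, of the double transgenic groups, and the 2 comparisons share no array. Both MEK genes were lower in both. Between the founders, Map2k1 fell by 0.55 (SE 0.14, limma adjusted p = 0.0102) and Map2k2 by 0.33 (SE 0.08, adjusted p = 0.00865) in MRP8hBCL2 against tethBCL2. Between the double transgenic groups, Map2k1 fell by 0.62 (adjusted p = 0.00447) and Map2k2 by 0.40 (adjusted p = 0.00258) in AML post MDS against HR-MDS.

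Of the 4 genes 2 passed in each comparison, where 22.6% and 24.2% of all genes did. Lower expression passed for 9.12% of genes between the founders and for 9.90% between the double transgenic groups, and for 6.92% in both. All 4 calls for the MEK genes held when any 1 array was left out, with adjusted p up to 0.0479 for Map2k2 and 0.0435 for Map2k1 between the founders. The unpaired test that the methods name, adjusted over all genes, did not call Map2k1 between the double transgenic groups (-0.62, adjusted p = 0.0982), although its unadjusted p was under the cutoff used there.

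Araf and Nras did not pass in either comparison. Araf was 0.31 higher in MRP8hBCL2 than in tethBCL2 without overlap between the mice, as for 42.1% of genes (adjusted p = 0.0704), and 0.13 higher in AML post MDS than in HR-MDS (adjusted p = 0.494). Nras differed by -0.09 (adjusted p = 0.728) and -0.17 (adjusted p = 0.437), and the second became -0.30 (adjusted p = 0.0286) with quantile normalisation.

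T-cell markers also differed between these groups, with higher medians where the MEK genes were lower. The median level of 7 T-cell markers was 10.29 to 10.94 in the 6 MRP8hBCL2 and AML post MDS mice and 9.29 to 9.99 in the other 9, and 4 of the 7 rose between the founders with none falling (median 0.84), while 4 rose and 2 fell between the double transgenic groups (median 0.44). Neutrophil markers ranged from 9.61 to 11.55 in those 6 mice and from 5.93 to 12.13 in the other 9, with 11 of 14 higher between the founders and 3 of 14 between the double transgenic groups. Of 9 cell cycle genes 4 rose in the first comparison and 5 in the second. The B-cell marker median was at 11.05 or above in all 15 mice, and 2 of 7 B-cell markers fell in each comparison with none rising. Over all genes 13.5% rose and 9.12% fell between the founders, and 14.3% rose and 9.90% fell between the double transgenic groups. The part of these cell types in the MEK values was not tested.

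The remaining pairs put the groups in order. For Map2k1 the means ran from MRP8NRASD12 (10.75 ± 0.24, SD, n = 3) and tethBCL2 (10.74 ± 0.07) through HR-MDS (10.62 ± 0.02) and MRP8hBCL2 (10.19 ± 0.05) to AML post MDS (10.00 ± 0.28). Among neighbours only HR-MDS and MRP8hBCL2 differed, by 0.43 (limma adjusted p = 0.0401, where 19.8% of genes passed), and this call was lost in 9 of the 15 fits that left out 1 array, with adjusted p up to 0.105.

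For Map2k2 the order was MRP8NRASD12 (9.12 ± 0.06), HR-MDS (8.96 ± 0.02), tethBCL2 (8.84 ± 0.01), AML post MDS (8.56 ± 0.05) and MRP8hBCL2 (8.50 ± 0.11). Only the neighbours tethBCL2 and AML post MDS differed, by 0.27 (adjusted p = 0.0176, where 31.8% of genes passed and 12.2% were lower in AML post MDS). That call was lost without tethBCL2 mouse 7466 or without AML post MDS mouse 3626, with adjusted p up to 0.0564. MRP8NRASD12 mice exceeded tethBCL2 mice in Map2k2 by 0.28 (adjusted p = 0.0442, where 8.83% passed and 5.98% were higher in MRP8NRASD12), which was lost in 10 of the 15 fits with 1 array left out and stood at 0.07 with array medians subtracted. MRP8NRASD12 and HR-MDS did not overlap in Map2k2, as for 7.86% of genes, and the difference of -0.16 did not pass (adjusted p = 0.845), as 0.0135% of genes did.

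MRP8NRASD12 stood farther from the groups with MRP8-driven BCL2. Map2k2 was 0.61 higher (adjusted p = 0.000141) and Map2k1 0.56 higher (adjusted p = 0.00928) in MRP8NRASD12 than in MRP8hBCL2, and Araf was lower by -0.43 (adjusted p = 0.0147), where 22.1% of genes passed. Against AML post MDS, Map2k1 was lower by -0.76 (adjusted p = 0.00136) and Map2k2 by -0.56 (adjusted p = 0.000264) in the leukaemic mice, where 22.4% passed and 8.74% were lower. Map2k1 was also lower in AML post MDS than in tethBCL2, by -0.74 (adjusted p = 0.000931). With only the arrays compared, Map2k1 and Araf did not pass between MRP8NRASD12 and MRP8hBCL2 (adjusted p = 0.0521 and 0.102). The unpaired test that the methods name did not call these 2 (adjusted p = 0.129 and 0.179) or Map2k1 in AML post MDS against MRP8NRASD12 (0.162) or tethBCL2 (0.0531). These comparisons share arrays with those above. The Y-linked Eif2s3y was at 3.66 to 4.01 in all 3 MRP8NRASD12 mice. It was at 9.25 or above in every mouse of the other groups except AML post MDS mouse 3518. The part of sex in any comparison with MRP8NRASD12 was not tested.

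For Araf, MRP8hBCL2 (10.02 ± 0.18) was followed by AML post MDS (9.72 ± 0.13), tethBCL2 (9.72 ± 0.01), HR-MDS (9.59 ± 0.12) and MRP8NRASD12 (9.59 ± 0.14), and no neighbours passed the test, although MRP8hBCL2 and AML post MDS did not overlap. HR-MDS was below MRP8hBCL2 by -0.43 (adjusted p = 0.0163), a call lost without HR-MDS mouse 8111, MRP8hBCL2 mouse 3386 or MRP8hBCL2 mouse 3391 (adjusted p up to 0.0838), with only the arrays compared (0.0507) and by the unpaired test (0.123). The Araf call between MRP8NRASD12 and MRP8hBCL2 was lost without MRP8NRASD12 mouse 8159 or MRP8hBCL2 mouse 3386 (adjusted p up to 0.0756). For Nras, with means of 9.77 ± 0.02 in HR-MDS, 9.75 ± 0.28 in MRP8NRASD12, 9.75 ± 0.05 in tethBCL2, 9.66 ± 0.13 in MRP8hBCL2 and 9.60 ± 0.23 in AML post MDS, none of the 10 pairs passed. With quantile normalisation Nras was lower in AML post MDS than in HR-MDS as given above, than in MRP8NRASD12 by -0.30 (adjusted p = 0.0288) and than in tethBCL2 by -0.25 (adjusted p = 0.0493), and the last was -0.40 (adjusted p = 0.0152) with array medians subtracted.

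The 4 genes did not vary as a block. Over the 15 arrays the correlation was 0.775 between Map2k1 and Map2k2, but after the group means were taken out it was -0.212, so the likeness of the 2 MEK genes lay between groups rather than between mice of a group. Nras and Map2k1 correlated at 0.694 over the arrays and at 0.866 within groups. Within groups Nras also followed the array's median over all genes (0.713). Araf and Map2k2 correlated at -0.711 over the arrays. These values are descriptive, since the points share 5 groups and 15 arrays.

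Of all genes tested, those with the profile most like that of Map2k1 over the 15 arrays were Ptpn6 (r = 0.981), which encodes the phosphatase SHP-1, and Mtm1 (r = 0.968). For Map2k2 they were Ostf1 (r = 0.981) and Vps4b (r = 0.963), for Araf Plekhg2 (r = 0.965) and Rnf31 (r = 0.963), and for Nras Cryzl1 (r = 0.968) and Gatb (r = 0.950).

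Genes around the cascade were read from 9 lists, which held 81 measured genes and were chosen with earlier results of these data known. Where the NRAS transgene was added, 7 of the 81 rose and none fell, and 3 of these were ERK output and feedback genes. Of this list's 15 measured genes 3 rose and none fell, with a median of 0.21 against 0.04 over all genes, where 4.89% of genes rose. They were Spred1, which encodes an inhibitor of RAS to RAF signalling, Dusp6, which encodes a phosphatase that inactivates ERK, and Ier3, an immediate early gene. Ccnd1 (-0.40, limma adjusted p = 0.0541), Myc (-0.22), Dusp4 (-0.11) and Egr1 (-0.04) of the same list differed in the other direction without passing.

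Spred1 was at 6.45, 6.64 and 6.75 in tethBCL2 mice 7758, 7465 and 7466 and at 7.11, 7.69 and 6.93 in HR-MDS mice 8111, 8019 and 8398. It was at 6.77, 6.76 and 7.25 in MRP8hBCL2 mice 3012, 3386 and 3391 and at 7.83, 7.64 and 7.82 in AML post MDS mice 3622, 3626 and 3518. Each double transgenic group lay above its BCL2 founder without overlap. Such separation, in either direction, held for 26.1% of genes in HR-MDS against tethBCL2 and for 18.2% in AML post MDS against MRP8hBCL2. The MRP8NRASD12 mice 8157, 8158 and 8159 had 7.45, 7.39 and 7.44. The mean rise was 0.73 (SE 0.13, limma adjusted p = 0.00704), made up of 0.63 in HR-MDS (adjusted p = 0.158) and 0.83 in AML post MDS (adjusted p = 0.0334), and the mean call held in all 15 fits with 1 array left out, while that in AML post MDS was lost in 6.

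Dusp6 was at 9.79, 9.99 and 9.93 in tethBCL2 mice 7758, 7465 and 7466, at 10.31, 10.58 and 10.24 in HR-MDS mice 8111, 8019 and 8398, at 10.08, 9.72 and 9.88 in MRP8hBCL2 mice 3012, 3386 and 3391, and at 10.31, 10.17 and 10.77 in AML post MDS mice 3622, 3626 and 3518. The 6 double transgenic mice were above all 6 mice of the BCL2 founders, and the share of genes with this pattern was not computed. Separation from the BCL2 founder held for 26.1% of genes in HR-MDS and for 18.2% in AML post MDS. In MRP8NRASD12 mice 8157, 8158 and 8159 Dusp6 was at 10.69, 10.67 and 11.21. Dusp6 differed by 0.47 in HR-MDS (limma adjusted p = 0.308) and by 0.52 in AML post MDS (adjusted p = 0.15), and neither passed alone. The mean rise of 0.50 (SE 0.13, adjusted p = 0.0327) lost its call in 7 of the 15 fits with 1 array left out (adjusted p up to 0.098) and also with array medians subtracted.

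Ier3 rose by 1.54 (SE 0.31, limma adjusted p = 0.0120), with 1.42 in HR-MDS and 1.66 in AML post MDS, neither of which passed alone. Both passed with array weights (adjusted p = 0.0141 and 0.0053) and without mice 8157 and 8398 (0.0137 and 0.0127), and the second also without mouse 8157 alone or mouse 8159 alone. Its values ran from 6.44 to 6.70 in tethBCL2, from 7.30 to 8.60 in HR-MDS, from 7.29 to 8.04 in MRP8hBCL2 and from 9.02 to 9.65 in AML post MDS. Both double transgenic groups were thus above their BCL2 founders in every mouse, and HR-MDS overlapped with MRP8hBCL2. In MRP8NRASD12 mice 8157, 8158 and 8159 Ier3 was at 7.27, 8.5 and 9.36, a range that overlapped with both double transgenic groups. Separation from the BCL2 founder, in either direction, held for 26.1% of genes in HR-MDS and for 18.2% in AML post MDS.

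**Figure D3:**
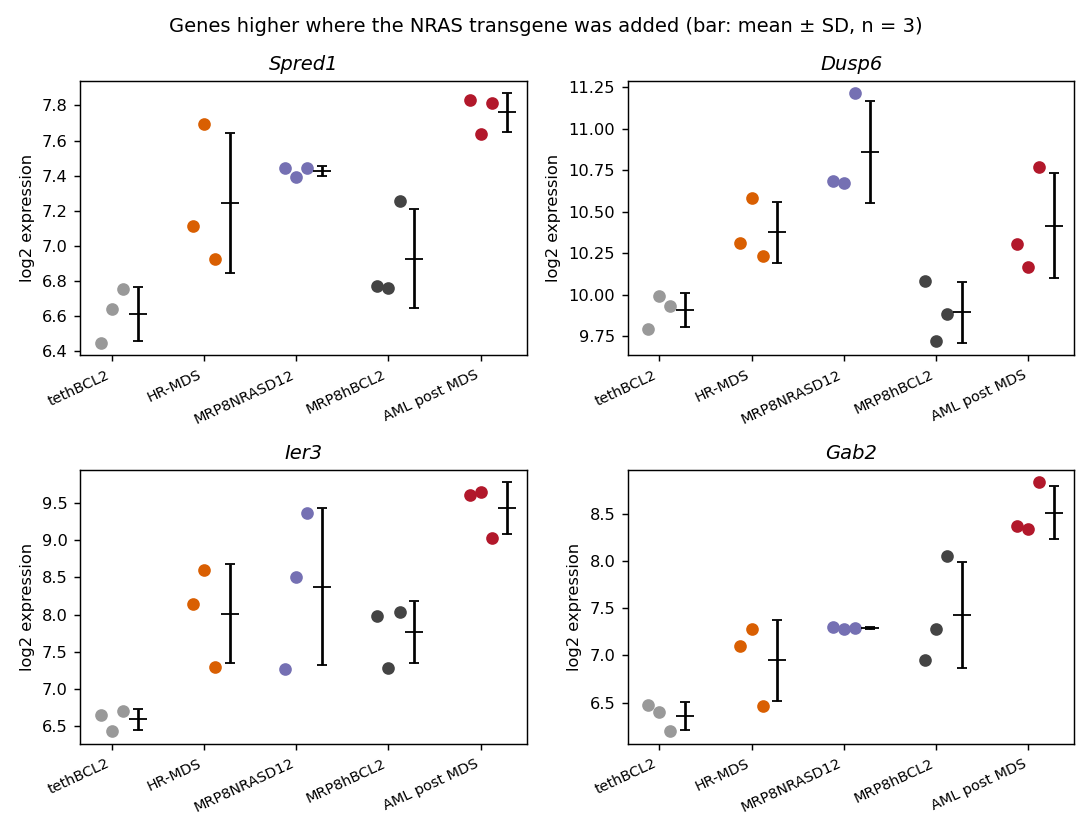
Log2 expression of Spred1, Dusp6, Ier3 and Gab2 in each of 15 mice, with the mean and SD of each group of 3. The axes do not start at 0. HR-MDS lies above tethBCL2, with overlap for Gab2 only, and AML post MDS above MRP8hBCL2.

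Upstream of RAS, 2 of 12 activators rose and none fell, where 4.89% of all genes rose. Gab2 and Gab1 encode docking adaptors that pass receptor signals on to RAS. Gab2 rose by 0.84 (SE 0.18, limma adjusted p = 0.0163), with 0.59 in HR-MDS and 1.08 in AML post MDS, the second of which passed (adjusted p = 0.0472) and was lost in 11 of 15 fits with 1 array left out. The mean call for Gab2 was lost without HR-MDS mouse 8019 or without MRP8hBCL2 mouse 3386 (adjusted p up to 0.0512). Gab1 rose by 0.70 (adjusted p = 0.00902) and kept its call in all 15 fits. Gab2 was also higher in MRP8hBCL2 than in tethBCL2, by 1.07 (limma adjusted p = 0.00761), and in AML post MDS than in HR-MDS, by 1.56 (adjusted p = 0.00056). Its mean was 7.43 in MRP8hBCL2, 7.29 in MRP8NRASD12 and 6.95 in HR-MDS. Of the 12 activators 3 rose and 1 fell in the first of these comparisons, and 1 rose and 0 fell in the second. Shares over all genes were 13.5% risen and 9.12% fallen, then 14.3% and 9.90%.

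The other lists held 2 calls, where 4.89% of all genes rose. Ralb, a RAS family GTPase, rose by 0.58 (adjusted p = 0.0420), 1 of 12 in its list, and Ppp1ca, a catalytic subunit of protein phosphatase 1, rose by 0.33 (adjusted p = 0.0419), 1 of 10 scaffolds and modulators. These calls were lost in 11 and 9 of the 15 fits and with array medians subtracted. None passed among 3 further cascade kinases (Mapk7, which encodes ERK5, 0.21), 7 RAS inactivators (Dab2ip, 0.25), 8 genes of RAS lipidation and trafficking (Golga7, 0.14), 4 kinases downstream of ERK (Rps6ka5, -0.26) and 11 genes of the stress kinase branch (Mapkapk2, 0.29). In HR-MDS against tethBCL2 alone none of the 81 passed, and in AML post MDS against MRP8hBCL2 Gab2 and Spred1 did.

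**Figure D4:**
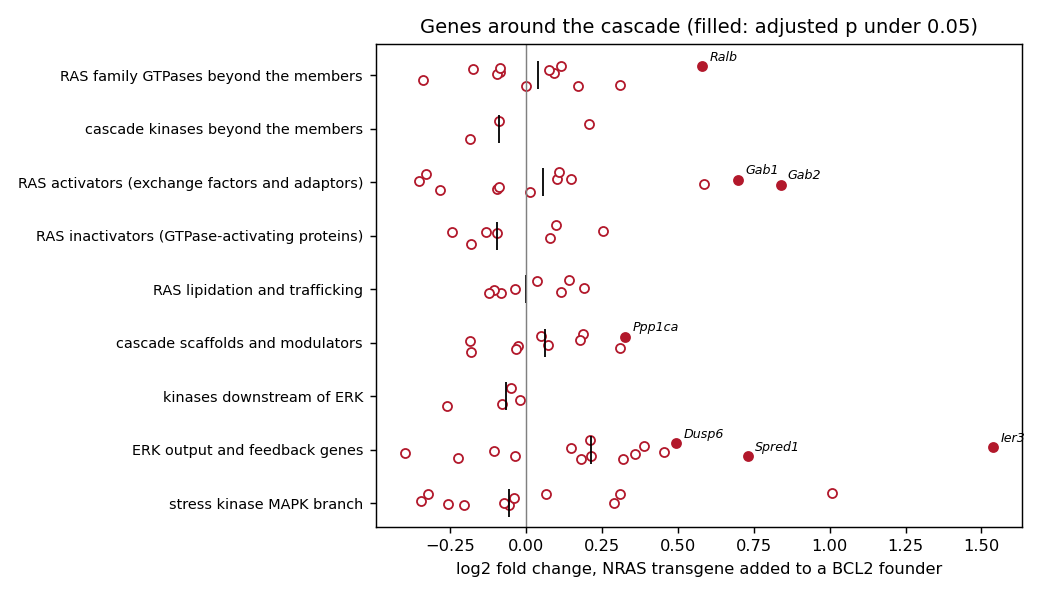
Log2 fold change of 81 genes around the cascade where the NRAS transgene was added, as the mean over both BCL2 constructs. Each circle is a gene, filled where the adjusted p was under 0.05, and black bars are list medians. The filled genes are Ralb, Gab1, Gab2, Ppp1ca, Dusp6, Spred1 and Ier3, all above 0.

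Other genes moved with the same addition. All 14 neutrophil markers rose (median 3.10), as did all 9 cell cycle genes (median 1.62), 5 of 8 monocyte and macrophage markers and 3 of 7 stem and progenitor markers, while 2 of 7 T-cell markers fell. Over all genes 4.89% rose and 1.59% fell. Taken singly, 12 of 14 neutrophil markers rose in HR-MDS against tethBCL2 (median 3.85). In AML post MDS against MRP8hBCL2 2 of 14 did (median 1.31). The neutrophil marker median was 5.93 to 6.32 in tethBCL2, 7.99 to 11.01 in HR-MDS, 9.61 to 10.40 in MRP8hBCL2 and 10.67 to 11.55 in AML post MDS. The part of these cells in the values of Spred1, Dusp6, Ier3, Gab1 and Gab2 was not tested.

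The same lists were read between the BCL2 constructs, where the MEK genes fell. Between the founders 26 of the 81 genes passed and between the double transgenic groups 27, and 20 passed in both with the same sign, which is 76.9% of the first and 74.1% of the second. Over all genes these shares were 75.1% and 70.1%. With MRP8-driven BCL2, 10 of them were higher and 10 lower. Over all genes 17.0% passed in both with the same sign, and among these lists 24.7% did.

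The genes of RAS lipidation and trafficking attach RAS to membranes and move it between them. Of 8 measured, 4 rose and 1 fell between the founders, where 13.5% of all genes rose and 9.12% fell. Between the double transgenic groups 5 rose and 1 fell, where 14.3% of all genes rose and 9.90% fell. Pde6d encodes a carrier of farnesylated RAS and rose by 1.62 between the founders (limma adjusted p = 5.9e-06) and by 1.89 between the double transgenic groups (adjusted p = 1.62e-06). It was at 9.76 to 10.30 in the 6 mice and at 8.07 to 8.55 in the other 9, and all 6 lay above all 9 for 7.82% of genes. Zdhhc9, a palmitoyltransferase of RAS, rose by 0.90 and 0.85, and Fntb, a farnesyltransferase subunit, by 0.66 and 0.63. Pggt1b, which encodes a subunit of a prenyltransferase, fell by 0.59 and 0.62.

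Among 12 RAS family GTPases, 2 rose and 4 fell between the founders, and 1 rose and 4 fell between the double transgenic groups. Of all genes, 13.5% rose and 9.12% fell in the first comparison, and 14.3% rose and 9.90% fell in the second. Rras had the widest change of the lists in both, 2.14 (adjusted p = 1.51e-05) and 2.0 (adjusted p = 2.47e-05). Rras ranged from 9.46 to 10.38 in the 6 mice and from 7.70 to 8.30 in the others, a separation that 7.82% of genes had. Rap1b fell by 0.37 and 0.39, Rap2c by 0.55 and 0.49, Rit1 by 0.51 and 0.52, and Rras2 by 0.58 and 0.88. The related GTPases thus moved in both directions while Nras did not pass.

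Closer to MEK, Ksr1, a scaffold that holds RAF and MEK together, rose by 0.59 and 0.63, and Shoc2, which promotes RAF activation, by 0.57 and 0.47. Lamtor2, part of an endosomal anchor for MEK1, fell by 0.77 and 0.86, Iqgap1, another scaffold, by 0.41 and 0.35, and Ppp2ca, the catalytic subunit of protein phosphatase 2A, by 0.69 and 0.67. Ksr1 was listed with the cascade kinases. Of the 10 scaffolds and modulators 2 rose (Shoc2 and Mras) and 3 fell between the founders, and 1 rose and 3 fell between the double transgenic groups. Shares over all genes were 13.5% risen and 9.12% fallen, then 14.3% and 9.90%. The MEK genes, Lamtor2, Iqgap1 and Ppp2ca were each lower in all 6 mice with MRP8-driven BCL2 than in the other 9, as were 5.37% of all genes. Ksr1 and Shoc2 were higher in all 6, as were 7.82%.

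In the stress kinase branch, Mapk14, which encodes p38 alpha, rose by 0.79 and 0.73 and Map2k4, a kinase of the JNK pathway, by 0.42 and 0.55, while Map3k1 fell by 0.70 and 0.62. Among the 15 ERK output and feedback genes none rose and 3 fell between the founders, and 2 rose and 1 fell between the double transgenic groups. The shares of all genes were 13.5% risen and 9.12% fallen in the first, and 14.3% and 9.90% in the second. Spred2 fell in both, by 0.90 and 1.0. Spry2, an inhibitor of receptor signalling, fell by 1.28 between the founders (adjusted p = 0.00614) and stood at -0.75 between the double transgenic groups (adjusted p = 0.0813).

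**Figure D5:**
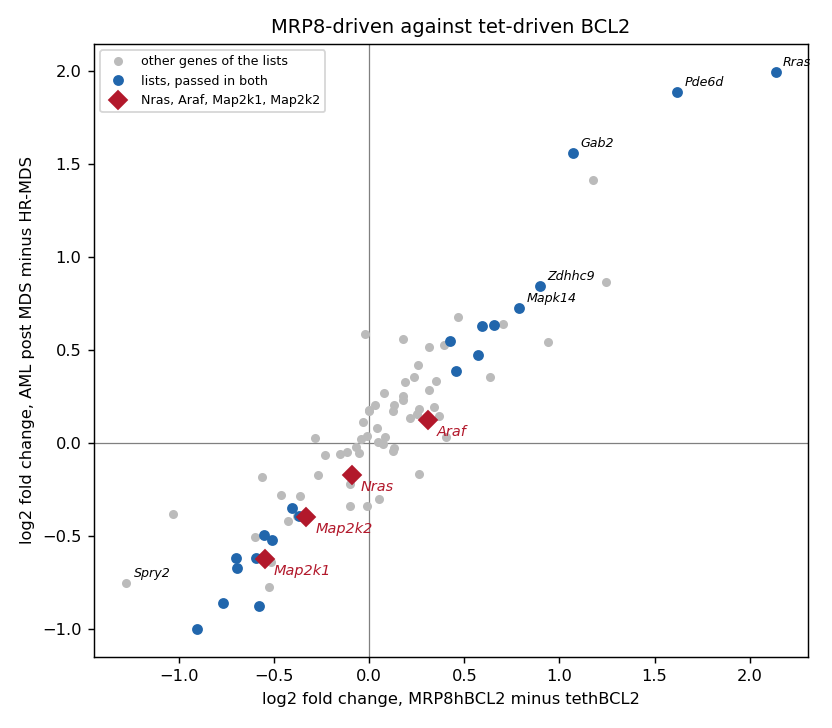
Log2 fold changes between MRP8-driven and tet-driven BCL2, with the founders (MRP8hBCL2 minus tethBCL2) on the horizontal axis and the double transgenic groups (AML post MDS minus HR-MDS) on the vertical axis. Points are 81 genes around the cascade, blue where they passed in both, and red diamonds are Nras, Araf, Map2k1 and Map2k2. Map2k1 and Map2k2 lie at the lower left, at -0.55 and -0.62 and at -0.33 and -0.40.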

How the data were processed

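The 15 samples were Mouse Exon 1.0 ST arrays of Sca1+ spleen cells. The deposited table held log2 values of 23332 probe sets in 15 arrays, which the authors summarised to genes, with the processing notes naming build mm9. The summarisation and the scaling between arrays were not given in any source at hand, and the values were used without further scaling. A probe set was named where the platform annotation gave 1 symbol (14996 of 23332, with 1019 naming several genes and 7317 none), and 14941 of these matched RefSeq by gene ID. Of several probe sets of a gene (135 genes), that with the highest mean was kept. Tests used limma 3.58.1 in R 4.3.3, with a mean for each of 5 groups over 15 arrays and Benjamini-Hochberg adjustment over 14860 genes at 0.05, and were tested on simulated data. Contrasts were all 10 pairs, the mean of the 2 NRAS effects and their difference. P-values measure the spread between these mice. The genes named were the 4 measured of the 7 listed, up to 3 passing genes of each pathway list by size or else the gene with the smallest p in the NRAS contrast, 2 genes most like each, and Eif2s3y. The other pathway genes, including Rras, Pde6d, Zdhhc9, Ppp2ca, Mapk14 and Spry2, were chosen after their values were seen. The genes and lists were chosen with earlier results of these data known. Promoters came from RefSeq, build GRCm38.p6. Alternatives were quantile and median scaling, a filter on low values, array weights, a variance trend, other probe set and array choices, the methods' unpaired t-test and leaving out each array. Arrays of mice without a transgene were not used here.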

Additional observations from a re-analysis of the deposited data

How the results depend on the processing

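The 2 MEK genes kept direction and call between the BCL2 constructs under the alternatives run, except that the methods' t-test, adjusted over all genes, gave Map2k1 -0.62 with an adjusted p of 0.0982 in AML post MDS against HR-MDS. Its unadjusted p was 0.0182, and the methods use 0.05 with no adjustment stated and name the test both unpaired and paired, of which the unpaired form was run. No paired analysis was possible because the mouse numbers differ in every group. Scaling mattered most for the small differences. With quantile normalisation Nras passed at -0.30 in AML post MDS against HR-MDS (adjusted p = 0.0286) and Araf turned to -0.0188 in AML post MDS against MRP8NRASD12. With array medians subtracted Map2k2 turned to -0.0529 in HR-MDS against tethBCL2 and to -0.041 in the mean NRAS effect, Ppp1ca to -0.0029 in HR-MDS against tethBCL2, and Araf passed at -0.34 in the mean NRAS effect. With array weights Araf passed at -0.36 in AML post MDS against MRP8hBCL2, 0.41 in MRP8hBCL2 against tethBCL2 and -0.26 in the mean NRAS effect, and Nras turned to 0.0619 in AML post MDS against MRP8NRASD12. Without mice 8157 and 8398 the last was 0.0058, and without mouse 8157 alone also 0.0058. Leaving out 1 array gave Araf 0.23 to 0.41 in MRP8hBCL2 against tethBCL2, which passed without MRP8hBCL2 mouse 3012, and Nras -0.24 to 0.01 in AML post MDS against MRP8NRASD12. Counts of genes past the threshold moved most. HR-MDS against tethBCL2 (67) had 106 with medians subtracted, 115 with the dimmest genes left out, 777 with weights, 270 with only the arrays compared, 5 by the t-test, 224 without mice 8157 and 8398 and 6 to 264 leaving out 1 array. AML post MDS against MRP8hBCL2 (287) had 683 with quantiles, 549 with medians, 1759 with weights, 0 with only the arrays compared, 0 by the t-test, 564 without the 2 mice and 14 to 762. The mean NRAS effect (962) had 1953 with medians, 2897 with weights, 1455 without the 2 mice and 398 to 1448. The difference of the effects (0) had 14 with weights, 11 without the 2 mice and 0 to 11. MRP8hBCL2 against tethBCL2 (3354) had 5586 with weights, and AML post MDS against HR-MDS (3594) had 1408 by the t-test. The cause was not tested.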
